A study of Mus musculus with 18 samples.

Results

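The loss of 1 copy of Csnk2a2, the gene of the CK2α' catalytic subunit, was examined in mice that carried no mutant huntingtin allele. The comparison set the 3 CK2a'(+/-) mice against the 5 WT mice across every gene with enough counts, which left 20914 of the 55421 genes listed by Ensembl identifier (37580 had a count in at least 1 mouse). The libraries belong to a study of 18 mice that also holds 5 zQ175 mice, heterozygous for the huntingtin knock-in with an expanded CAG repeat, and 5 zQ175:CK2a'(+/-) mice, which carried the knock-in and the null allele together. All mice were on a C57BL/6 background and were 12 to 14 months old, the dissected striatum was sequenced, and every mouse gave 1 library with no pooling. The null allele is constitutive, so every cell type had carried it since conception. It came from a line with 129/SvEv ancestry that was back-crossed to C57BL/6, and genotype and any 129 sequence retained around the allele cannot be told apart in these mice. Since each replicate was a separate mouse, p-values measure the spread between mice.

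CK2 is a serine/threonine kinase assembled from catalytic subunits, CK2α (Csnk2a1) or CK2α' (Csnk2a2), and a dimer of the regulatory subunit CK2β (Csnk2b). It is active without a second messenger and phosphorylates a broad range of substrates, among them chaperone complexes, clock proteins and synaptic proteins. CK2α' is enriched in brain and testis, and mice without any functional copy are viable while CK2α is required for development. The striatum is made mostly of spiny projection neurons, the cells that degenerate first in Huntington's disease.

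Total counts per library ran from 14176224 to 22184692 in WT and from 15616338 to 22702547 in CK2a'(+/-). Over all pairs of these 8 libraries, within and between groups, log2 CPM (counts relative to the TMM-normalized size of the library) correlated at 0.950 to 0.972. The striatal markers were abundant in all 8 libraries, with Ppp1r1b (DARPP-32) at 639 to 1248 CPM in WT and at 884 to 1481 CPM in CK2a'(+/-), and Drd1 and Drd2 were above 60 CPM in each. WT 4 and WT 5 stood apart from the other 6 libraries of the comparison in the counts over 39 Hox genes, which are silent in forebrain. They held 827 and 400 Hox counts, WT 1 to 3 and CK2a'(+/-) 1 to 3 held 0 to 11, and the 10 libraries with zQ175 held 124 to 1185. The part of this difference in the results was not tested directly, and values without WT 4 and WT 5 are given for the called genes, for most lists in the plot of list medians, and for some of the other genes that they change. Xist exceeded the Y-linked genes in 4 of the 5 WT mice and in 1 of the 3 CK2a'(+/-) mice, so sex was unevenly spread over the groups. Mitochondrial transcripts took 19.0% to 24.0% of the counts of a library.

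Loss of the allele left 3 genes past the test in mice without zQ175. Csnk2a2 and the long noncoding RNA Crnde were lower, and the long noncoding RNA 4933406B17Rik, next to Csnk2a2, was higher. These 3 genes are 0.0143% of the 20914 tested, taken with edgeR's quasi-likelihood test at an FDR (Benjamini-Hochberg) below 0.1, with 0.00478% higher and 0.00956% lower. All 3 lie on chromosome 8. At an unadjusted p under 0.05, 417 genes were higher and 520 lower (4.48% of genes tested, 1.99% higher and 2.49% lower). The count was 0 in a fit of the WT and CK2a'(+/-) libraries alone (730 at an unadjusted p under 0.05), 1 with the replicate number as a block and 1 to 9 without 1 mouse. DESeq2 called 11 genes, 2 higher and 9 lower, which were these 3 with Lpcat2, Lrrn3, Rbbp8, Tmc3, Catsperg1, Gm15513, Hoxc4 and Hoxc5. Of these, Hoxc4 and Hoxc5 belong to the Hox genes that set WT 4 and WT 5 apart, and Catsperg1, a sperm cation channel subunit, had 3, 1 and 0 counts in CK2a'(+/-) against 36, 16, 15, 17 and 12 in WT, a rate of 6.99% of that in WT (exact 95% interval 1.87% to 18.5%, counting error only). The median log2 fold change over all genes was -0.0057. The plot of p against log2 fold change shows the called genes beside the other genes tested.

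**Figure D1:**
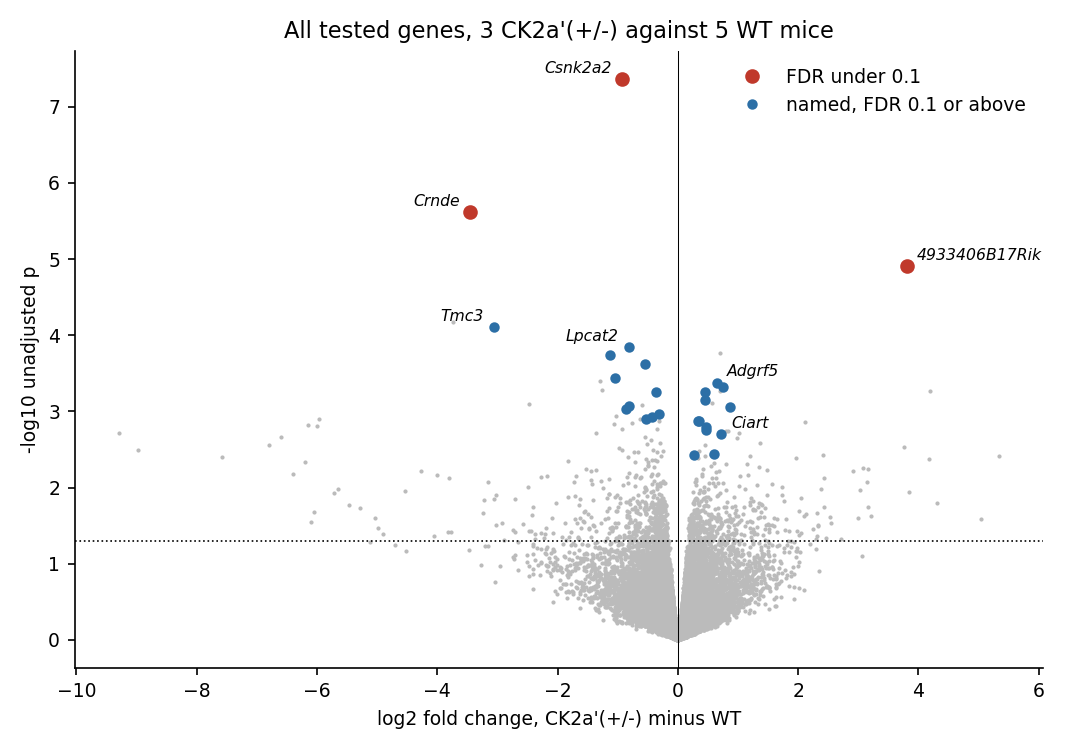
Each point is 1 of the 20914 tested genes, with the log2 fold change of CK2a'(+/-) (n = 3 mice) minus WT (n = 5 mice) on the x axis and the unadjusted p of edgeR's quasi-likelihood fit, as -log10, on the y axis, where the dotted line marks the threshold of 0.05. The 3 called genes are red, the genes named without a call are blue, and Csnk2a2 lies highest at -0.92, above Crnde at -3.45 and 4933406B17Rik at 3.81.

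Csnk2a2 (ENSMUSG00000046707, GRCm38 chr8:95446096-95490039, minus strand, protein coding) was at 29.4, 35.0, 32.7, 30.4 and 30.5 CPM in WT 1 to 5 and at 17.4, 14.7 and 18 CPM in CK2a'(+/-) 1 to 3. The CK2a'(+/-) mice all lay below every WT mouse, and their mean was 52.8% of the WT mean. The log2 fold change was -0.92 (SE 0.11, 95% interval -1.15 to -0.69, FDR = 0.000897). In an exact two-sided permutation test over the 56 ways to split the 8 mice, p was 0.0179, the smallest that this design can give. Without WT 4 and WT 5 the log2 fold change was -0.96 with FDR = 0.00737 in edgeR's quasi-likelihood test. The call was lost when the fit held only the WT and CK2a'(+/-) libraries (FDR = 0.101 in edgeR) and when it held only WT 1 to 3 and CK2a'(+/-) (FDR = 0.468 in edgeR). Each of the 8 libraries thus matched its label at the targeted gene.

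The other subunits of the kinase did not pass. Csnk2a1, which encodes CK2α, was at 52.2, 68.4, 50.8, 54.9 and 50.8 CPM in WT and at 60.7, 66.5 and 55.2 CPM in CK2a'(+/-), with a log2 fold change of 0.13 (SE 0.12, 95% interval -0.11 to 0.38). The ranges overlapped, and WT 2 held the highest value of the 8. Csnk2b, which encodes CK2β, was at 42.2, 39.8, 38.5, 46.0 and 50.8 CPM in WT and at 40.8, 40.4 and 40.8 CPM in CK2a'(+/-), a log2 fold change of -0.10 (SE 0.10, 95% interval -0.30 to 0.11). The intervals leave room for a rise of Csnk2a1 of up to 0.38 on the log2 scale, while the summed CPM of the 3 subunits was 122 to 143 in WT and 114 to 122 in CK2a'(+/-).

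4933406B17Rik (ENSMUSG00000110427, chr8:95496430-95503718, plus strand) is a lincRNA that is transcribed away from Csnk2a2. It was nearly silent in WT, at 0.548, 0.112, 0.272, 0 and 0.278 CPM, and was at 3.18, 4.20 and 2.94 CPM in CK2a'(+/-). In counts this was 11, 2, 4, 0 and 6 against 63, 96 and 44. The groups did not overlap, and the log2 fold change of 3.81 (SE 0.67, 95% interval 2.41 to 5.20) passed with edgeR's quasi-likelihood test at FDR = 0.0872. The call was lost when any CK2a'(+/-) mouse, any zQ175:CK2a'(+/-) mouse or any of WT 2 to 5 was left out of the fit, with log2 fold changes between 3.46 and 4.37 over all 18 omissions of 1 mouse, and without both WT 4 and WT 5 the value was 3.42 with FDR = 0.517 in edgeR's quasi-likelihood test.

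Crnde (ENSMUSG00000031736, chr8:92326033-92356120, minus strand, processed transcript), known from colorectal tumours and from fetal brain, lies 3.12 Mb from Csnk2a2. It was at 0.997, 1.06, 0.545, 2.04 and 2.18 CPM in WT and at 0.152, 0.131 and 0.0667 CPM in CK2a'(+/-). The CK2a'(+/-) libraries held 3, 3 and 1 counts of it, against 20, 19, 8, 46 and 47 in WT, so the pooled rate was 8.39% of the WT rate (exact 95% interval 3.31% to 17.8%, counting error only). The log2 fold change was -3.45 (SE 0.54, 95% interval -4.57 to -2.33, FDR = 0.025 in edgeR's quasi-likelihood test). The WT mice with the highest levels were WT 4 and WT 5, and without them the fold change was -2.79 with FDR = 0.252. Leaving out any CK2a'(+/-) mouse also ended the call, at FDR between 0.255 and 0.394. Of its closest tested neighbours, both named after their values were seen, Irx5, a homeobox gene, had a log2 fold change of -0.62 (SE 0.84), and the predicted gene Gm21817, which starts inside the span of Crnde, had -3.02 (SE 1.31). Gm21817 held 0, 0, 1, 43 and 20 counts in WT 1 to 5 and 2, 2 and 0 in CK2a'(+/-), so its value rested on WT 4 and WT 5.

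**Figure D2:**
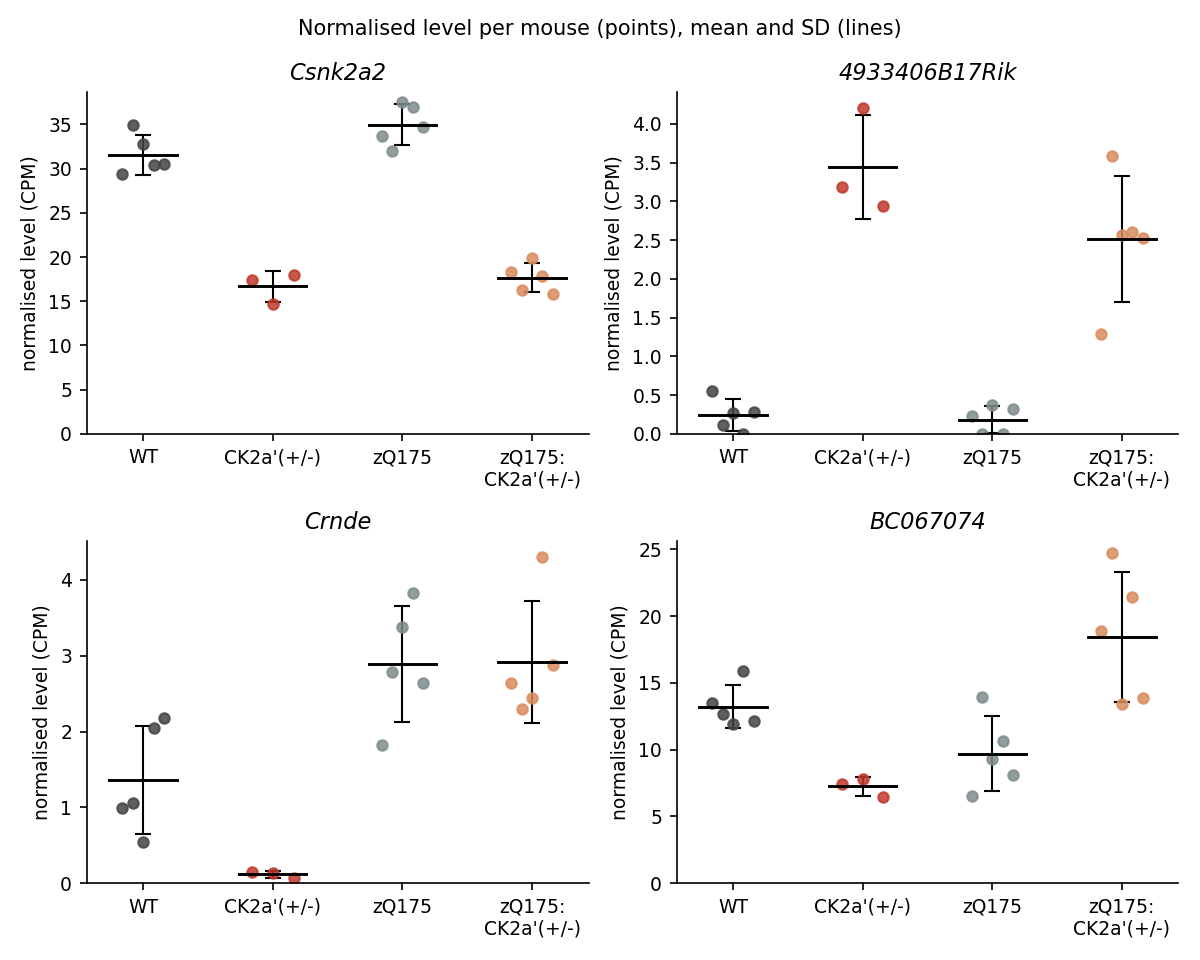
CPM of Csnk2a2, 4933406B17Rik and Crnde, the genes called between CK2a'(+/-) and WT, in each of the 18 mice. Each point is 1 mouse, bars give the group mean and SD, and Csnk2a2 and 4933406B17Rik separate the groups with and without the null allele, while Crnde is low in the CK2a'(+/-) mice and reaches 4.3 CPM in zQ175:CK2a'(+/-).

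The same allele loss could be read in other mice, zQ175:CK2a'(+/-) against zQ175, which share no library with the comparison above and are called the zQ175 pair in what follows. Csnk2a2 was at 33.6, 32.0, 37.5, 37.0 and 34.7 CPM in zQ175 and at 18.3, 16.3, 19.9, 17.9 and 15.8 CPM in zQ175:CK2a'(+/-), a log2 fold change of -0.99 (SE 0.09). The change did not differ detectably from that without zQ175 (difference 0.06, SE 0.14). 4933406B17Rik went from 0.234, 0, 0.369, 0 and 0.323 CPM to 1.29, 3.59, 2.57, 2.60 and 2.52 CPM, a log2 fold change of 3.68 (SE 0.65, FDR = 0.092 in edgeR's quasi-likelihood test). This call was lost in 15 of 18 omissions of 1 mouse, at FDR up to 0.247, and the difference from the change without zQ175 was 0.12 (SE 1.05).

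Crnde did not pass in the zQ175 pair. It was at 1.83, 2.78, 3.38, 3.82 and 2.63 CPM in zQ175 and at 2.65, 2.30, 2.45, 4.3 and 2.88 CPM in zQ175:CK2a'(+/-), with overlapping ranges and a log2 fold change of 0.02 (SE 0.33). The difference between the 2 allele losses was -3.47 (SE 0.63, unadjusted p = 1.85e-05) and did not pass in edgeR's quasi-likelihood test (FDR = 0.194). It passed in 3 of 26 alternatives. These were DESeq2 (FDR = 0.0121), no filter on low counts (FDR = 0.031 in edgeR) and leaving out WT 3 (FDR = 0.0764 in edgeR). Without WT 4 and WT 5 the difference was -2.81 (FDR = 0.995 in edgeR's quasi-likelihood test). The libraries of the zQ175 pair held Hox counts as WT 4 and WT 5 did, and the part of this in the difference was not tested.

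The gene starts of the called genes are shown because Csnk2a2 and 4933406B17Rik start from neighbouring, divergent sites, together with that of Ciart, the clock gene described further on. Each run is the 250 bases before the RefSeq gene start (build GRCm38.p6), written 5′ to 3′ on the strand of the gene, and none overlaps an annotated exon. Capitals mark GC boxes (GGGCGG, or CCGCCC on the other strand) in the first 3 and E-boxes (CACGTG, its own reverse complement) in Ciart.
Csnk2a2, chr8:95488821-95489070, minus strand: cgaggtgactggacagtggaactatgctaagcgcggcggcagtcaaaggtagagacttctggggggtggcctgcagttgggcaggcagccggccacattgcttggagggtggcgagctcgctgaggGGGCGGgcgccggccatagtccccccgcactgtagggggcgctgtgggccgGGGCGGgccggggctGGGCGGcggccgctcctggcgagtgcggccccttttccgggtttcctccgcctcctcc
4933406B17Rik, chr8:95496164-95496413, plus strand: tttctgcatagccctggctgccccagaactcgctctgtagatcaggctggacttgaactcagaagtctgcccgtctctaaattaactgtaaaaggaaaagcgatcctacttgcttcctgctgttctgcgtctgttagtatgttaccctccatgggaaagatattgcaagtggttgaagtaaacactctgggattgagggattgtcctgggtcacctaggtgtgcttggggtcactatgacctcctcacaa
Crnde, chr8:92356121-92356370, minus strand: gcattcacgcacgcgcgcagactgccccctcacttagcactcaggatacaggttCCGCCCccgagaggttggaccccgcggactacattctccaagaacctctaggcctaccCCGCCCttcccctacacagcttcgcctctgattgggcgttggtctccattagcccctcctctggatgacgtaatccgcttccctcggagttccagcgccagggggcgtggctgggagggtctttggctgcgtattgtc
Ciart, chr3:95882229-95882478, minus strand: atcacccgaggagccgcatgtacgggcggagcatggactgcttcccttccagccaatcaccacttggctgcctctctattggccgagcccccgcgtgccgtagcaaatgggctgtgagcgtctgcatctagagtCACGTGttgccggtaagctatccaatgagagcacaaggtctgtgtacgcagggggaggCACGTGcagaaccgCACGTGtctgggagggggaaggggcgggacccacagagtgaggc
The Csnk2a2 window was 71.6% G or C and held 3 GC boxes, 124 to 58 bases before the start. The Crnde window held 2, and that of 4933406B17Rik held none and was 48.4% G or C. A GC box occurred in 32.7% of the 32851 RefSeq windows of the same length, so its presence is common. The RefSeq starts of Csnk2a2 and 4933406B17Rik lay 7.59 kb apart, and their windows do not meet.

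Around Csnk2a2, few of the tested genes differed. Of 42 tested genes within 1 Mb, 3 were at an unadjusted p under 0.05 (7.14%, against 4.4% on the other chromosomes), and the shares were 7 of 56 genes (12.5%) from 1 to 5 Mb, 4 of 68 (5.88%) from 5 to 10 Mb and 50 of 911 (5.49%) on the rest of chromosome 8. Besides 4933406B17Rik, the genes within 1 Mb were Gm45853 and Gm45762. Gm45853 (chr8:95480453-95483623) lies inside the span of Csnk2a2 on the same strand and was at 2.09 to 3.64 CPM in WT and at 1.6 to 1.88 CPM in CK2a'(+/-), a log2 fold change of -0.72 (SE 0.30), beside -0.94 (SE 0.26) in the zQ175 pair. Gm45762, another predicted gene, had 1.05 (SE 0.48), with WT 4 at 2.93 CPM inside the CK2a'(+/-) range of 2.12 to 2.94 CPM, and -0.42 (SE 0.42) in the zQ175 pair. Neither passed the FDR threshold in mice without zQ175.

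Lpcat2 was the protein-coding gene of this stretch with the smallest p. It encodes a lysophosphatidylcholine acyltransferase that makes phosphatidylcholine and platelet-activating factor, and lies at chr8:92855339-92919279. It was at 9.57, 10.2, 9.19, 12.2 and 15.7 CPM in WT and at 6.51, 5.78 and 7.34 CPM in CK2a'(+/-), without overlap, with a log2 fold change of -0.80 (SE 0.17, unadjusted p = 0.000142, FDR = 0.482 in edgeR's quasi-likelihood test). In the zQ175 pair the value was -0.40 (SE 0.15). An antisense transcript shares 8.5% of its exon bases.

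Further genes from 1 to 5 Mb away had values of like sign at an unadjusted p under 0.05 in both pairs of groups. Gm45640 (chr8:90876581-90878476), a predicted gene, was at 6.95 to 9.67 CPM in WT and at 4.73 to 5.81 CPM in CK2a'(+/-), a log2 fold change of -0.70 (SE 0.23), and had -0.79 (SE 0.20) in the zQ175 pair. Fto, an RNA demethylase gene named after its values were seen, had -0.19 (SE 0.07) and -0.19 (SE 0.06). Beyond 5 Mb, Phkb, a phosphorylase kinase subunit gene also named after its values were seen, had 0.19 (SE 0.09) and 0.27 (SE 0.08), whereas Tradd, an adaptor gene of TNF receptor signalling at 5 to 10 Mb as well, had opposite signs, at -0.94 (SE 0.28) and 0.55 (SE 0.24). The 4 genes at that threshold in both pairs on the rest of chromosome 8 had like signs. The share at an unadjusted p under 0.05 in the zQ175 pair was 9.52% within 1 Mb, 16.1% from 1 to 5 Mb, 10.3% from 5 to 10 Mb, 6.15% on the rest of chromosome 8 and 6.22% on the other chromosomes.

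**Figure D3:**
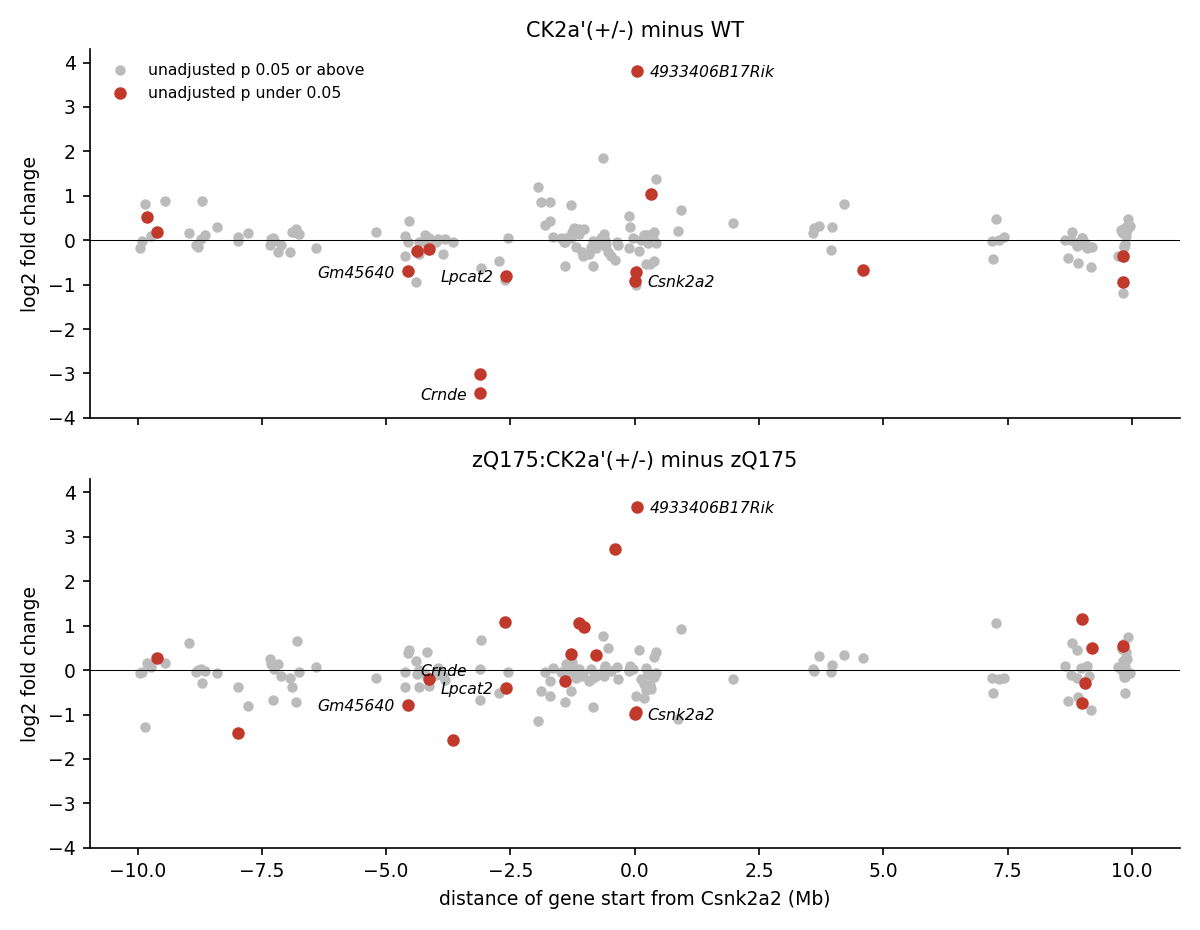
Log2 fold change (y axis) of the tested genes within 10 Mb of Csnk2a2 on chromosome 8, by the distance of the gene start from that of Csnk2a2 in Mb (x axis), for CK2a'(+/-) minus WT in the upper panel and zQ175:CK2a'(+/-) minus zQ175 in the lower. Each point is 1 gene and red points have an unadjusted p under 0.05. Csnk2a2 and 4933406B17Rik keep their place in both panels, whereas Crnde moves from -3.45 to 0.02.

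Below the FDR threshold, genes were named where the groups did not overlap and the mean level was at least 1 CPM. Over all genes tested, 669 (3.2%) did not overlap between the groups, 300 higher (1.43%) and 369 lower (1.76%), and none of those named in this paragraph passed. Tmc3, a transmembrane channel-like gene, had the largest difference among them. It was at 1.4, 1.51, 3.68, 10.6 and 12.7 CPM in WT and at 0.758, 0.613 and 0.801 CPM in CK2a'(+/-), a log2 fold change of -3.06 (SE 0.63). WT 4 and WT 5 carried most of the WT level, without them the value was -1.58, and an antisense gene shares 43.9% of its exon bases. The other lower genes included Rbbp8, a DNA end resection factor, with a log2 fold change of -1.13 (SE 0.25), and Asap3, an Arf GTPase-activating protein, with -1.04 (SE 0.25). Scg2, the precursor of the peptide secretoneurin, was at 199 to 235 CPM in WT and at 135 to 172 CPM in CK2a'(+/-), a log2 fold change of -0.44 (SE 0.12). Lrrn3, a leucine-rich repeat membrane protein of neurons, was at 34.1, 32.0, 23.6, 33.8 and 31.6 CPM in WT and at 22.8, 18.9 and 22.2 CPM in CK2a'(+/-), with WT 3 nearest the CK2a'(+/-) mice, and Pea15a, an adaptor of ERK signalling, was at 273 to 358 and at 242 to 257 CPM. Zcchc12, a transcriptional co-activator of neurons, had a log2 fold change of -0.81 (SE 0.21) and Cul7, a cullin of an E3 ligase, had -0.53 (SE 0.14).

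BC067074, a predicted protein-coding gene on chromosome 13, was at 13.5, 12.7, 11.9, 15.9 and 12.1 CPM in WT and at 7.42, 7.83 and 6.47 CPM in CK2a'(+/-). The groups did not overlap, and the log2 fold change was -0.86 (SE 0.22, FDR = 0.768 in edgeR's quasi-likelihood test). In the zQ175 pair the direction was opposite, from 6.56, 13.9, 9.29, 10.7 and 8.07 CPM to 18.9, 24.7, 13.4, 21.4 and 13.9 CPM, a log2 fold change of 0.93 (SE 0.19). Its difference between the 2 allele losses, -1.79 (SE 0.29), was the only one of the 20914 to pass (FDR = 0.0951, 0.00478% of genes tested) in edgeR's quasi-likelihood test. Without WT 4 and WT 5 that FDR was 0.528, with the Xist level in the fit it was 0.427, and in 14 of the 18 omissions of 1 mouse the call was lost, at FDR up to 0.649.

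The higher genes that did not overlap held several that are known from blood vessels, which was noticed after their values were seen. Adgrf5, an adhesion receptor of endothelium and lung epithelium, was at 31.9, 30, 36.2, 32.6 and 29.2 CPM in WT and at 42.2, 63.6 and 44.1 CPM in CK2a'(+/-), a log2 fold change of 0.65 (SE 0.15). Ptprb, the endothelial tyrosine phosphatase VE-PTP, was at 31.2 to 44.2 CPM in WT and at 48.7 to 55.7 CPM in CK2a'(+/-), a log2 fold change of 0.46 (SE 0.11), and Flt1, a VEGF receptor, was at 44.1 to 54.5 and at 59.7 to 78.3 CPM. Slc7a5, the large neutral amino acid transporter of the blood-brain barrier, had a log2 fold change of 0.46 (SE 0.12) and also 0.30 (SE 0.10) in the zQ175 pair. Cxcl12, a chemokine, had 0.86 (SE 0.22), and Tns2, a focal adhesion protein, had 0.47 (SE 0.13). Further higher genes were Gpcpd1, a glycerophosphocholine phosphodiesterase, with 0.35 (SE 0.09), and Ano8, Smim14, Mrip-ps and AC154542.1, with values from 0.26 to 0.75. Adgrf5 and Flt1 had -0.24 (SE 0.14) and -0.16 (SE 0.11) in the zQ175 pair.

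The list of endothelial and pericyte genes gives further vascular genes, whichever way they moved. It was chosen with earlier results of these data known. Of its 18 tested members none passed, 2 (Flt1 and the pericyte gene Rgs5) were higher at an unadjusted p under 0.05 and none lower (against 1.99% and 2.49% of all genes), and the median log2 fold change was 0.21. Rgs5 was at 32.1, 34.5, 40.8, 30.2 and 28.5 CPM in WT and at 53.2, 43.2 and 49.2 CPM in CK2a'(+/-), without overlap. Cldn5, the tight junction gene of endothelium, had a log2 fold change of -0.60 (SE 0.29), opposite in sign to Rgs5 and Flt1. The summed CPM of the list was 219 to 270 in WT and 267 to 325 in CK2a'(+/-), and the median of the list was 0.05 without WT 4 and WT 5. In bulk tissue, more cells of a type and more RNA per cell cannot be told apart.

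Circadian clock genes were mostly higher in CK2a'(+/-), none past the FDR threshold. The list was chosen with earlier results of these data known, so its share is no independent evidence. The core clock is a loop in which CLOCK or NPAS2 pairs with BMAL1 (Arntl) to drive the Per, Cry and Nr1d genes from E-boxes, whose products then repress it, and CK2 phosphorylates BMAL1 and PER proteins. Of 18 tested members, 15 had a log2 fold change above 0, 10 were higher and 1 (Nfil3, a repressor of PAR bZIP targets) lower at an unadjusted p under 0.05, against 1.99% and 2.49% of all genes, and the median was 0.29. In 6 of them, Nr1d1, Nr1d2, Dbp, Hlf, Ciart and Bhlhe40, all CK2a'(+/-) mice lay above all WT mice, against 1.43% of all genes.

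Ciart, a repressor of CLOCK and BMAL1, had the smallest p. It was at 11.8, 9.27, 12.9, 7.86 and 11.4 CPM in WT and at 16.5, 19.1 and 16.8 CPM in CK2a'(+/-), a log2 fold change of 0.72 (SE 0.20, unadjusted p = 0.00197 in the quasi-likelihood fit), and had -0.30 (SE 0.19) in the zQ175 pair. Bhlhe40, another E-box repressor, was at 40.4, 47.0, 54.8, 42.2 and 47.3 CPM in WT and at 61.6, 65.3 and 62.3 CPM in CK2a'(+/-). The 3 CK2a'(+/-) values of Bhlhe40 lay close together and above the WT range, with a log2 fold change of 0.45 (SE 0.14). Nr1d2, the nuclear receptor REV-ERBβ, was at 86.4, 81.8, 83.8, 75.9 and 72.0 CPM in WT and at 88.9, 104 and 102 CPM in CK2a'(+/-), a log2 fold change of 0.30 (SE 0.10). Per3, a period gene, had 0.41 (SE 0.14) with overlapping ranges.

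Part of the clock list depended on WT 4 and WT 5. Without these mice Ciart stood at 0.63 and Bhlhe40 at 0.41, near their values over all mice. Dbp, a PAR bZIP factor, was at 125, 122, 112, 64.7 and 65.3 CPM in WT and at 127, 133 and 154 CPM in CK2a'(+/-), a log2 fold change of 0.50 (SE 0.18), with WT 4 and WT 5 far below the other mice. Without WT 4 and WT 5 the log2 fold change of Dbp was 0.20, and the lowest CK2a'(+/-) mouse stood at 127 CPM against 125 CPM in WT 1. Nr1d1 went from 0.33 to 0.18 and Per3 from 0.41 to 0.25 in the same fit. Over the list, the summed CPM was 1236 to 1658 in WT and 1673 to 1773 in CK2a'(+/-). Without WT 4 and WT 5 the median was 0.16, with 2 members higher and 1 lower at an unadjusted p under 0.05. In the zQ175 pair the median was -0.09 and no member was at that threshold. In the driving arm of the loop, the log2 fold change was -0.10 (SE 0.16) for Arntl, 0.04 (SE 0.07) for Clock and 0.06 (SE 0.19) for Npas2. The labels do not give the hour at which tissue was taken.

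In the Ciart window printed with the gene starts above, the E-box occurred 3 times, 116 to 44 bases before the start. The motif was in 6.02% of all 32851 windows and in 5 of the 16 clock genes with a RefSeq window (Per1, Cry1, Tef, Ciart and Bhlhe41). The GC box was in 15 of these 16 windows (93.8%) against 32.7% of all windows, so the clock windows differ from all windows in more than the E-box. The windows of the other 11 held none, which says nothing about sequence elsewhere.

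Heat shock response genes were mostly lower. This list too was chosen with earlier results of these data known, so its share is no independent evidence. HSP90, HSC70 and their co-chaperones fold kinases, steroid receptors and aggregation-prone proteins, and HSF1 drives their transcription. Of 23 tested members, 19 had a log2 fold change below 0, 6 were lower and none higher at an unadjusted p under 0.05 (against 2.49% and 1.99% of all genes), the median was -0.20, and none passed. In the zQ175 pair the median was -0.08, with 8 of the 23 above 0. In 4 members, Hspa8, Hsp90ab1, Dnaja1 and Stip1, all CK2a'(+/-) mice lay below all WT mice, against 1.76% of all genes.

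Hspa8, which encodes the constitutive chaperone HSC70, was at 815, 832, 911, 999 and 942 CPM in WT and at 736, 676 and 749 CPM in CK2a'(+/-), a log2 fold change of -0.32 (SE 0.08, unadjusted p = 0.0011, FDR = 0.787 in edgeR's quasi-likelihood test). Hsp90ab1, the constitutive HSP90β, was at 1301, 1353, 1363, 1440 and 1353 CPM in WT and at 1142, 1064 and 1261 CPM in CK2a'(+/-), a log2 fold change of -0.24 (SE 0.08). Both genes are abundant, and the CK2a'(+/-) mice lay below the lowest WT mouse in each. Cryab, the small heat shock protein αB-crystallin of glia, was at 76.5 to 111 CPM in WT and at 66.6 to 78.1 CPM in CK2a'(+/-), a log2 fold change of -0.33 (SE 0.13), and had 0.41 (SE 0.11) in the zQ175 pair. Hspb2 shares 17% of the exon bases of Cryab on the other strand.

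Co-chaperones of HSP90 made up part of the rest, with Ahsa1 at -0.24 (SE 0.11) and Fkbp4 at -0.32 (SE 0.15). The summed CPM of the list was 3711 to 4197 in WT and 3165 to 3518 in CK2a'(+/-), without overlap, and the median was -0.19 without WT 4 and WT 5, with 4 members lower at an unadjusted p under 0.05. Hsf1 itself was at 30.9 to 37.0 CPM in WT and at 32.2 to 36.3 CPM in CK2a'(+/-), a log2 fold change of 0.03 (SE 0.09). The inducible Hspa1a was at 0.598 to 2.31 CPM in WT and at 0.744 to 1.00 CPM in CK2a'(+/-).

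**Figure D4:**
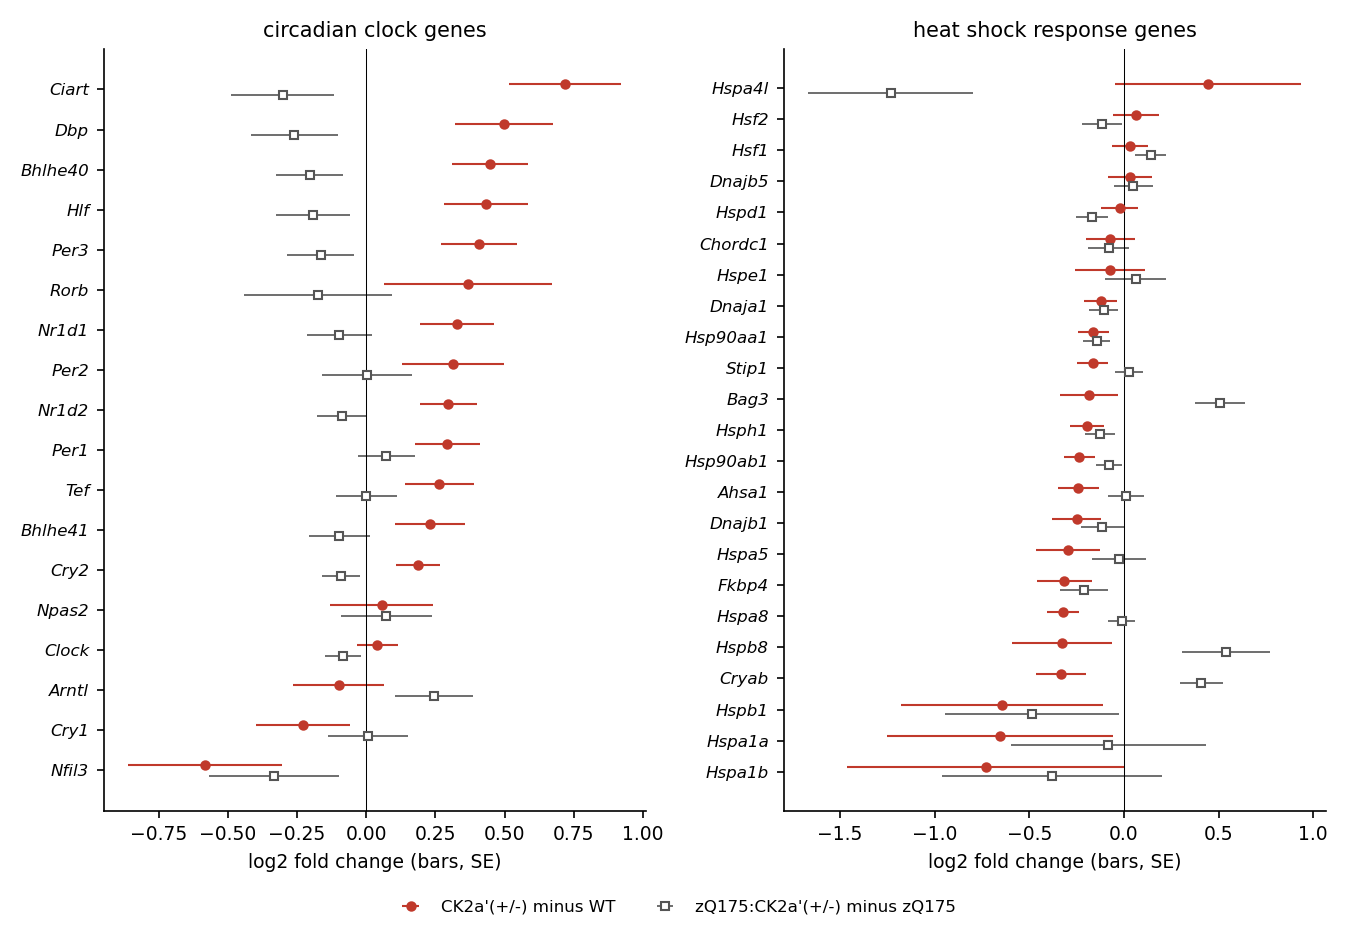
Log2 fold change (x axis) of each tested circadian clock gene (left) and heat shock response gene (right), with filled points for CK2a'(+/-) minus WT, open squares for zQ175:CK2a'(+/-) minus zQ175 and bars of 1 SE. Most filled clock points lie above 0 and most filled heat shock points below 0, with Ciart at 0.72 and Hspa8 at -0.32.

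Spiny projection neuron genes had positive values, with a median that was closer to 0 without WT 4 and WT 5. Of 22 tested genes shared by both projection neuron types, 21 were above 0, 2 (Pcp4 and Scn4b) were higher at an unadjusted p under 0.05 (against 1.99% of all genes), none passed, and the median log2 fold change was 0.24. Pcp4, a calmodulin regulator, was at 164, 212, 211, 184 and 175 CPM in WT and at 211, 303 and 326 CPM in CK2a'(+/-), a log2 fold change of 0.56 (SE 0.14), with CK2a'(+/-) 1 inside the WT range, and 0.51 without WT 4 and WT 5. Igsf5 shares 23.7% of the exon bases of Pcp4. Scn4b, a sodium channel β subunit, was at 492, 687, 478, 239 and 210 CPM in WT and at 540, 628 and 700 CPM in CK2a'(+/-). WT 4 and WT 5 were the lowest of the 8 mice in Scn4b, whose log2 fold change of 0.56 was 0.17 without them. The median of the list was 0.04 without both WT 4 and WT 5. It was 0.13 to 0.44 without 1 mouse, with 0.44 without WT 2. In the zQ175 pair the median of the list was 0.19, with all 22 genes above 0 and none at an unadjusted p under 0.05. Drd1, the receptor of direct pathway neurons, had a log2 fold change of 0.29 (SE 0.26) and Drd2, that of indirect pathway neurons, had 0.31 (SE 0.24), and both were at -0.02 without WT 4 and WT 5. The medians were 0.05 over 10 direct pathway genes and 0.27 over 9 indirect pathway genes, and -0.02 and -0.03 without WT 4 and WT 5. Of the indirect pathway genes, Ptprm, a receptor tyrosine phosphatase, was higher at an unadjusted p under 0.05. None of the 10 sex-linked genes was at that threshold.

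Synaptic gene groups stayed near the level of all genes. The median log2 fold change was 0.05 in 16 AMPA and kainate receptor genes and 0.14 in 14 NMDA and metabotropic glutamate receptor genes. It was 0.11 in 19 postsynaptic scaffold genes and 0.02 in 22 synaptic vesicle genes. Without WT 4 and WT 5 these medians were -0.03, 0.06, 0.01 and 0.02. At an unadjusted p under 0.05 these lists held 0, 1 (Grin2b, an NMDA receptor subunit, 0.24, SE 0.10), 0 and 1 (Syp, synaptophysin, -0.29, SE 0.13). Beside the 1.99% of all genes that were higher at that threshold, 2 of 14 GABA-A receptor genes were, Gabra4 and Gabrd, with a median of -0.03. Gabra4, the subunit α4 of extrasynaptic receptors, was at 117, 175, 147, 122 and 117 CPM in WT and at 162, 176 and 180 CPM in CK2a'(+/-), where only WT 2 lay inside the CK2a'(+/-) range. Of 23 immediate early genes, 2 (Sik1 and Per1) were higher at that threshold, against the same 1.99%, with a median of 0.18. None of the genes in these lists passed.

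Glial, immune and metabolic lists each held 1 gene at an unadjusted p under 0.05, or none, and no gene past the FDR threshold. Over all genes, 1.99% were higher and 2.49% lower at an unadjusted p under 0.05. The median was 0.11 for 16 astrocyte genes with 1 higher (Slc4a4, a bicarbonate transporter), 0.06 for 16 myelinating oligodendrocyte genes with none, -0.13 for 12 oligodendrocyte precursor genes with 1 lower (Pdgfra, the receptor that marks these cells, -0.30, SE 0.09) and -0.04 for 17 microglia genes with none. Reactive astrocyte and cytokine genes had a median of 0.26 over 14 genes, and Serpina3n, an acute phase serpin, had 1.24 (SE 0.49) there. Serpina3n was at 5.38, 8.71, 10.2, 12.5 and 12.6 CPM in WT and at 8.18, 42.9 and 19.0 CPM in CK2a'(+/-), which overlapped. The medians were 0.06 for 20 interferon and antigen presentation genes, -0.02 for 21 cholesterol synthesis genes, -0.03 for 21 lysosome genes with Gaa at -0.22 (SE 0.10), -0.02 for 13 mitochondrially encoded genes and -0.00 for 10 nuclear-retained long noncoding RNAs.

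Among 27 genes of proteins known as CK2 substrates or partners, 1 was higher (Grin2b) and 2 lower (Hsp90ab1 and Fkbp4) at an unadjusted p under 0.05 (against 1.99% and 2.49% of all genes), the median was 0.01, and none passed. The genes that the study named for loss of CK2α' within zQ175 were a list the study chose on the zQ175 libraries of this series, so they are no independent evidence of a direction. The copy used here held 38 genes and is shorter than the study's own list. Of 36 tested, 1 was called higher and 1 lower without zQ175, 4933406B17Rik and Csnk2a2, 1 was higher and 5 lower at an unadjusted p under 0.05 (against 1.99% and 2.49% of all genes), and the median was -0.05. C1ql3, a secreted synaptic C1q-like protein of that list, was at 3.34, 6.93, 3.20, 7.24 and 5.05 CPM in WT and at 1.36, 2.41 and 2.80 CPM in CK2a'(+/-), a log2 fold change of -1.24 (SE 0.44), beside -1.79 (SE 0.36) in the zQ175 pair. Nr4a2, an orphan nuclear receptor that was called in the zQ175 pair at -2.23 (SE 0.36), was at 2.31 to 9.06 CPM in WT and at 2.78 to 3.37 CPM in CK2a'(+/-), a log2 fold change of -0.81 (SE 0.41).

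Markers of tissue next to the striatum varied between mice of a group. All 12 choroid plexus genes were below 0 (median -0.76, and -3.50 to -0.10 without 1 mouse, none at an unadjusted p under 0.05), and Ttr, the transthyretin gene that defines this tissue, was at 1969, 3.41, 1647, 7.11 and 10.5 CPM in WT and at 908, 8.36 and 2.94 CPM in CK2a'(+/-). High and low mice occurred in both groups. All 10 thalamic neuron genes were above 0 (median 0.47, none at that threshold), but their median was -0.31 with the Xist level in the fit and 0.02 to 0.89 without 1 mouse. Their summed CPM was 372 to 956 in WT and 330 to 1339 in CK2a'(+/-). Of 9 tested hypothalamic and basal forebrain peptide genes, Nts, which encodes neurotensin, was lower at that threshold (-1.14). Of 17 cortical excitatory neuron genes, Neurod2 was lower (-2.10). Over all genes, 2.49% were lower and 1.99% higher at that threshold. Neurod2 held 9, 31, 16, 220 and 199 counts in WT 1 to 5 and 16, 24 and 20 in CK2a'(+/-), so its difference came from WT 4 and WT 5, and WT 1 to 3 overlapped with CK2a'(+/-). Ependymal, meningeal fibroblast, hippocampal and striatal interneuron genes had medians of -0.24, -0.26, -0.02 and 0.08 with none at that threshold. Without 1 mouse these medians ran from -1.03 to 0.26, from -0.69 to -0.07, from -0.04 to 0.10 and from -0.11 to 0.16. None of the genes in these lists was called, and no defining marker that was tested was at 0 in all 8 libraries.

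Of the 10 blood genes only 4 had enough counts to be tested, and these entered through the libraries in which they were high, so their number at an unadjusted p under 0.05 (4 higher, none past the FDR threshold) and their median of 4.08 carry no weight. Hbb-bs, adult β-globin, was at 0.0997, 1.01, 0, 0 and 0.0927 CPM in WT and at 19.3, 9.49 and 0.0667 CPM in CK2a'(+/-). CK2a'(+/-) 1 and 2 carried this signal, and CK2a'(+/-) 3 lay inside the WT range. Alas2, the erythroid enzyme of haem synthesis, was at 0 to 0.279 CPM in WT and at 0.467 to 1.49 CPM in CK2a'(+/-). Globin genes have near-identical copies between which reads can be split, so the value of a single copy is uncertain. The summed CPM of the blood list was 0.311 to 1.68 in WT and 0.868 to 26.1 in CK2a'(+/-), beside the higher values of the vascular genes above, and its part in them was not tested.

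**Figure D5:**
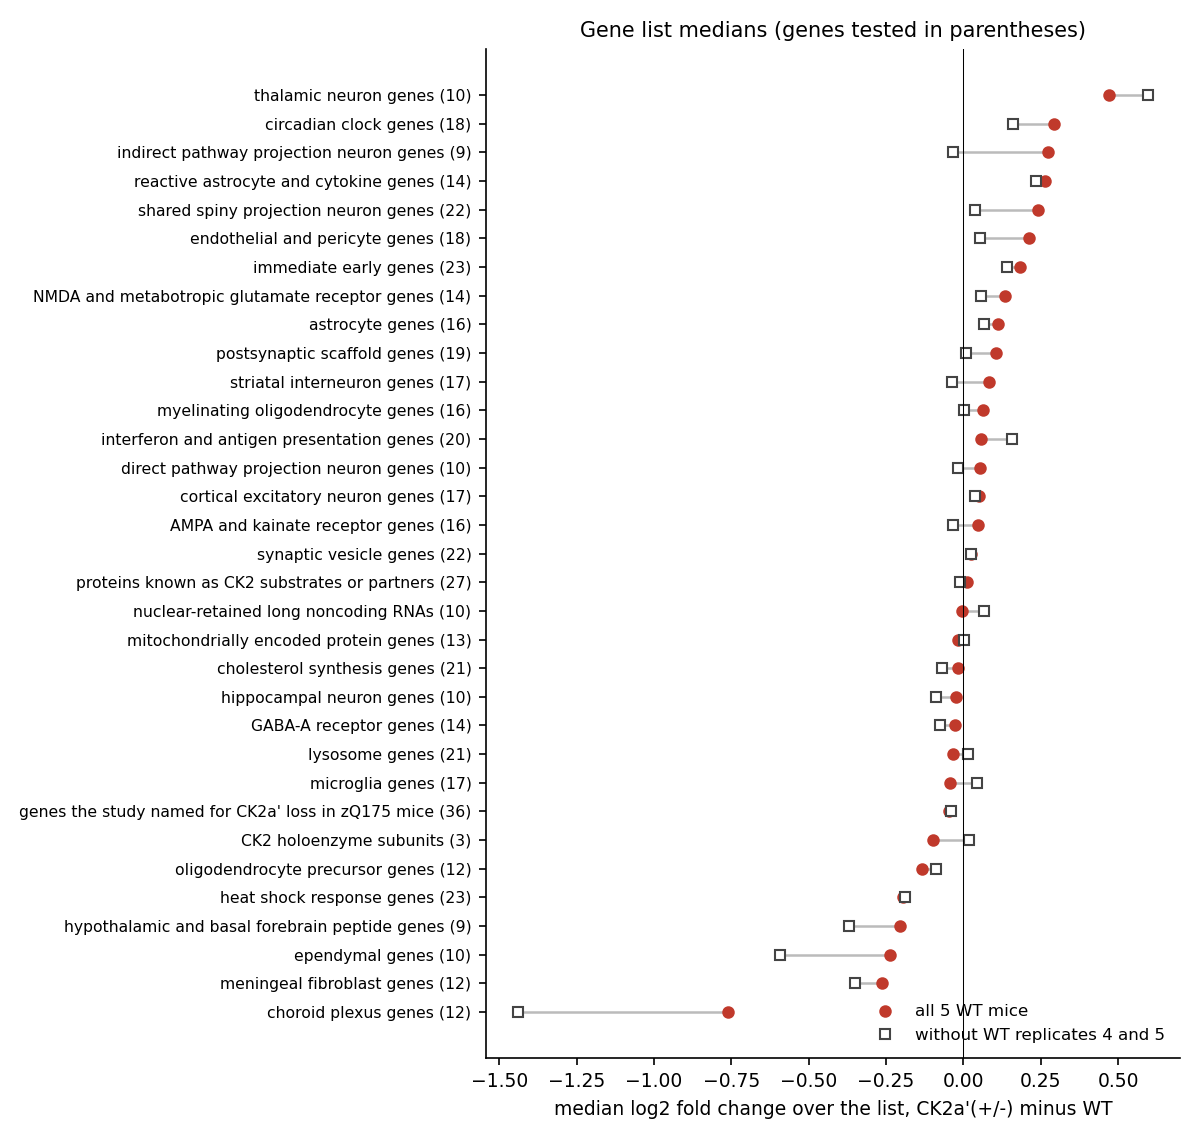
Median log2 fold change of CK2a'(+/-) minus WT (x axis) over the tested genes of each list, with their number in parentheses, filled for all 5 WT mice and open for the fit without WT 4 and WT 5. The blood and sex-linked lists are among those not drawn. The clock list moves from 0.29 to 0.16 and the shared spiny projection neuron list from 0.24 to 0.04, while the heat shock list goes from -0.20 to -0.19.

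Set side by side over all genes, the 2 allele losses shared few of their smallest p-values. In the zQ175 pair 3 genes passed (0.0143%), Csnk2a2, 4933406B17Rik and Nr4a2, and 1312 were at an unadjusted p under 0.05 (6.27%). Of the genes at that threshold, 78 were common to both pairs, 8.32% of the 937 without zQ175 and 5.95% of the 1312 with it, and 42 of the 78 had the same sign while 36 had opposite signs. On chromosome 8 within 5 Mb of Csnk2a2, the shared genes were 4933406B17Rik and Gm45853 within 1 Mb and Lpcat2, Gm45640 and Fto beyond it, all of the same sign in both pairs. For the difference between the losses, 1127 genes (5.39%) were at an unadjusted p under 0.05.

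The precision of the comparison followed the level of a gene. The median SE of the log2 fold change was 0.792 for genes under 1 CPM, 0.338 from 1 to 10 CPM, 0.140 from 10 to 100 CPM and 0.0988 above 100 CPM. The median half-width of the 95% interval was 0.292 from 10 to 100 CPM and 0.205 above 100 CPM. A difference of 0.20 in a single gene thus lay within the interval of a typical gene at any level. These half-widths do not give the precision of a list median. These errors hold the spread between mice as well as depth.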

How the data were processed

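RNA from the striatum of 18 mice was sequenced (5 WT, 5 zQ175, 3 CK2a'(+/-), 5 zQ175:CK2a'(+/-)). The authors trimmed (Trimmomatic), aligned to GRCm38 (HISAT2 2.1.0), dropped duplicate, unmapped and low-quality mappings, and deposited raw counts per gene from Subread 1.6.2 in the CHURP pipeline. The deposited gene lengths, in bases, are other values that set no test here. Whether counting used the strand is not given in the sources used here, so genes that overlap are uncertain.

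In R 4.3.3, edgeR 4.0.16 (TMM, filterByExpr, quasi-likelihood test) was fitted to the 18 libraries together by genotype alone. A gene passed at a Benjamini-Hochberg FDR under 0.1, and log2 CPM used a prior count of 2. Every adjusted p is from this fit unless DESeq2 1.42.0, another setting or the mice left out are named beside it. SEs and 95% intervals were derived from the F statistic. The code was tested on simulated data. Groups came from the labels. Replicate numbers did not pair the samples (correlations of deviations 0.120, -0.047 and -0.136).

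Genes were named if they were CK2 subunits or 4933406B17Rik, had passed, were among the 12 higher and 12 lower genes of smallest p that averaged at least 1 CPM without overlap, or were among the 4 of smallest p in a list, and further list members were added after their values were seen. The members and lists were chosen with earlier results of these data known. Sequences are from RefSeq (GRCm38.p6), and 3 of 3 called genes and 16 of 18 clock genes matched. Gene positions and overlaps are from GENCODE M21, which 55240 identifiers matched.

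Alternatives were DESeq2, size factors, no filter or 10 counts, only the groups compared, the replicate block, the Xist level, a robust fit, FDR 0.05 and leaving out each mouse. The fits without WT 4 and WT 5 were added after seeing the data. A further list is not reported here.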

Additional observations from a re-analysis of the deposited data

Results flagged for a closer look

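Of the 75 groups of 5 mice examined, nearly all were WT. The zQ175 and zQ175:CK2a'(+/-) groups were examined only for Csnk2a2, Crnde, 4933406B17Rik and BC067074. Chance alone sets 1 mouse apart in about 1 in 20 groups. In 9 of the 75 groups, each of them WT, 1 mouse lay far from the other 4 by its gap to the nearest. For genes, these were Lrrn3 in WT 3 (23.6 CPM), Tns2 in WT 3 (31.9 CPM), Pecam1, an endothelial adhesion molecule, in WT 3 (16.2 CPM), Hbb-bs in WT 2 (1.01 CPM), Gm45762 in WT 4 (2.93 CPM) and Csnk2a1 in WT 2 (68.4 CPM). WT 3 thus held the highest WT value of Tns2 and Pecam1 and the lowest of Lrrn3. For libraries, these were the median correlation of WT 4 with its own group (0.955) and, in WT 1, the levels of Xist (0.498 CPM) and of the Y-linked genes (193 CPM), the only WT mouse in which the Y-linked genes exceeded Xist.

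The difference between the 2 allele losses passed for BC067074, at -1.79 on the log2 scale, a call lost in 14 of the 18 omissions of 1 mouse, with -0.86 (SE 0.22) without zQ175 and 0.93 (SE 0.19) with it. All 3 CK2a'(+/-) mice lay below all 5 WT mice, which was a condition for naming the gene below the FDR threshold. No such condition was set on the zQ175 and zQ175:CK2a'(+/-) ranges, which met between 13.4 and 13.9 CPM.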

How the results depend on the processing

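The count of called genes in CK2a'(+/-) against WT, 3, moved to 11 with DESeq2, 19 without a filter on low counts, 0 with only the groups compared (730 at an unadjusted p under 0.05), 1 with the replicate block, and, in fits added after seeing the data, 1 without WT 4 and WT 5 and 0 with only WT 1 to 3 and CK2a'(+/-) (503 at an unadjusted p under 0.05). Leaving out 1 mouse gave 1 to 9, with 9 without WT 2. In the zQ175 pair the 3 calls became 39 with DESeq2, 51 without the filter, 1 with the replicate block and 1 to 6 without 1 mouse. For the difference, 1 call became 19 with DESeq2, 10 without the filter, 0 with the Xist level, at FDR 0.05 and without WT 4 and WT 5, and 0 to 2 without 1 mouse. The 3 calls of CK2a'(+/-) against WT stayed within 1.5 times under the other alternatives run.

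Csnk2a2 kept its direction in all 28 alternatives (-0.98 to -0.84) but lost its call with only the groups compared (FDR = 0.101 in edgeR) and with only WT 1 to 3 and CK2a'(+/-) (FDR = 0.468 in edgeR). Crnde (-3.64 to -2.79) and 4933406B17Rik (3.42 to 4.37) kept their direction but lost their calls in 7 and 17 of 28. Several signs turned. For Crnde in the zQ175 pair the value was -0.00939 with the replicate block, -0.056 with the Xist level and -0.16 to 0.15 without 1 mouse. For the difference of 4933406B17Rik it was -0.099 with the block, -0.53 with the Xist level, -0.27 without WT 4 and WT 5, and -0.22 to 0.69 without 1 mouse. Without WT 4 and WT 5, and with only WT 1 to 3 and CK2a'(+/-), Csnk2b was at 0.0168 and 0.0168, Drd1 at -0.0166 and -0.0155, and Drd2 at -0.0193 and -0.0182. The cause was not tested. Single mice decided calls both under and above 1 CPM, and depth was not separated from the spread between mice.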
